A study of Homo sapiens with 6 samples.

Results

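The pregnancy-specific glycoproteins (PSGs) are a family of genes that lie side by side on chromosome 19. The members were taken by gene symbol from a list of 10 genes, PSG1 to PSG9 and PSG11, and the family was chosen by its measured difference between the lines, since PSG probes had already been seen to be brighter in one of them. The values of that contrast are given below as a description, without a test. The array held 1 probe each for 6 of the 10 genes, PSG1, PSG2, PSG3, PSG5, PSG8 and PSG11, out of 22967 probes with a symbol that name 19771 genes. The expression of PSG4, PSG6, PSG7 and PSG9 was not analysed here.

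PSGs are secreted glycoproteins built of immunoglobulin-like domains. They are made by the syncytiotrophoblast, the outer layer of the placenta that faces maternal blood, and reach high concentrations in the circulation of pregnant women. They belong to the carcinoembryonic antigen family together with the CEACAMs, which unlike the PSGs are mostly held in the cell membrane. PSG1, the best-studied member, binds the latent form of the cytokine TGFβ, and several PSGs act on immune cells, platelets or endothelial cells.

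The study compared 2 stable derivatives of the MDA-MB-231 breast cancer line, which is triple-negative (without hormone receptors or HER2) and invasive. MB-231-maspin carries maspin, a serpin often lost in tumours, joined through the self-cleaving P2A peptide to the green fluorescent protein ZsGreen. MB-231-control carries ZsGreen alone. Both were made with a lentiviral vector and selected with 10 µg/mL blasticidin, and each line is a pool of surviving clones, so that line and transgene cannot be told apart.
Total RNA was hybridised to 6 one-colour 3D-Gene arrays, with 3 arrays for each line by the labels. Whether these were separate cultures of a line is not given in the sources, so p-values measure only the spread between arrays, which may be technical. The number of arrays limits the precision, since the smallest exact permutation p that 3 arrays a line allow is 0.1.

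The probe for maspin itself, SERPINB5, lay near background and gives no firm check of the labels. Its mean normalized intensity was 4.94 with the MB-231-control label and 3.80 with the MB-231-maspin label, a negative control spot was brighter than it on 1 of the 6 arrays, and where in the transcript the probe lies is not stated. The study also measured maspin in these lines by RT-qPCR and western blot, which are not analysed here. Directions below refer to the arrays as labelled. The mesenchymal markers of MDA-MB-231 (VIM, CD44, AXL, CAV1 and MSN) were bright, with a summed intensity of 16963 to 19826 on control and 18033 to 18349 on maspin arrays, and of the luminal markers ESR1 was blank on all 6 arrays and PGR at background. GATA3, the remaining luminal marker, was measured throughout, at 20.9, 24.3 and 21.6 on the control and 28.6, 26.3 and 27.4 on the maspin arrays (log2 fold change 0.30, limma adjusted p = 0.188). The part of this difference in the PSG values was not tested. Leukocyte markers summed to 25.3 to 31.7 and 28.9 to 32.3.

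The upstream sequences are shown first because those at hand are near copies, and because the factor KLF6 was first cloned from placenta as a protein that binds the PSG core promoter. RefSeq promoters on GRCh38.p14 were at hand for 3 of the 10 genes, PSG3, PSG4 and PSG5, of which PSG3 and PSG5 also had a probe. The 250 bases before the annotated start of each are given on the transcribed sense, that is the minus strand of the chromosome, with matches to CCCCGCCC or CCCCACCC in capitals. The PSG3 window is chr19:42740482-42740731 and the PSG5 window is chr19:43186537-43186786.
PSG3: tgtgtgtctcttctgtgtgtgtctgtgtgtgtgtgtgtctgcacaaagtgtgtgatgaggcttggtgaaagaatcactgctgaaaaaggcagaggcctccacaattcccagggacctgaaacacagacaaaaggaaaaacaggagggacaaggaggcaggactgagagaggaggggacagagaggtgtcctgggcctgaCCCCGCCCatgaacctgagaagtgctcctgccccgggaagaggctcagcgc
PSG5: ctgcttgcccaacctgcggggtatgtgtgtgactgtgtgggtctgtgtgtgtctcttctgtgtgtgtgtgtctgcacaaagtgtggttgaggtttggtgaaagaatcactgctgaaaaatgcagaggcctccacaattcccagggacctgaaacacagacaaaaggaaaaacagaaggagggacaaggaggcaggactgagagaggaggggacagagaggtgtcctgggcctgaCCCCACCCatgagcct
The windows of PSG3 and PSG5 were near copies of each other. Over the windows extended to 50 bases past the start, 252 of 276 aligned positions were identical (91.3%), with an unbroken identical run of 63 bases and annotated starts offset by 35 bases in the alignment. PSG3 and PSG4 matched at 278 of 295 positions (94.2%), and PSG4 and PSG5 at 248 of 274 (90.5%). The capitals mark the same element of the alignment, read CCCCGCCC in PSG3 (positions -51 to -44 from the start) and in PSG4 (-46 to -39), and CCCCACCC in PSG5 (-16 to -9). Such letters are common. On either strand CCCCGCCC was found in 21.8% and CCCCACCC in 10.4% of 35116 RefSeq promoter windows of the same length. The letters TATAAA, present in 10.7% of all windows, were in none of the 3, and each motif was searched by itself as an exact word.

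Among the 6 PSG probes, 5 were brighter on every maspin array than on any control array, and 1, PSG11, was not. For PSG1 the gap was only 1.08-fold, and its control arrays lay within the negative controls. Such non-overlap on the higher side was found in 14.1% of all probes with a mean above 10 in either line and a value on every array. Among dimmer probes with 6 values it was found in 5.36%. The values are globally normalized intensities, that is the signal above background, which the authors then brought to a common array median of 25. A fold is the ratio of the group means, and a log2 fold change is maspin minus control from a limma fit to 14305 probes with a mean above 10 in either line. PSG2, PSG3, PSG5 and PSG8 passed that minimum, with a mean above 10 in both lines. In bulk RNA, fewer expressing cells and less RNA per cell cannot be told apart.

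PSG5 (Entrez Gene 5673) had the largest fold change of the family in this fit. Its normalized intensity was 9.75, 12.0 and 11.6 on the control arrays and 34.9, 33.7 and 35.4 on the maspin arrays. The maspin arrays were tightly grouped and lay far above the control arrays, the lowest of them 2.81-fold over the highest control. The means were 11.1 ± 1.21 and 34.7 ± 0.844 (SD, n = 3 each), a 3.12-fold difference with a log2 fold change of 1.65 ± 0.10 (SE; 95% interval 1.42 to 1.87). By size of the increase it ranked 11 among the probes in the fit.

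PSG2 (Entrez Gene 5670), which lies next to PSG5 on the chromosome, gave 46.1, 48.6 and 42.7 on the control arrays and 87.3, 99.7 and 112 on the maspin arrays. Here the maspin arrays spread more than the control arrays, with a coefficient of variation of 12.2% against 6.48%, but did not come near them. The means were 45.8 ± 2.97 and 99.5 ± 12.1, a 2.17-fold difference (log2 fold change 1.11 ± 0.11, SE; interval 0.87 to 1.36). It ranked 19.

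PSG8 (Entrez Gene 440533) gave 13.5, 14.3 and 10.8 on the control arrays and 24.7, 26.9 and 28.3 on the maspin arrays. The groups were again apart, the lowest maspin array lying 1.72-fold over the highest control array. The means were 12.9 ± 1.84 and 26.6 ± 1.82, a 2.07-fold difference (log2 fold change 1.05 ± 0.12, SE, interval 0.78 to 1.33), rank 23.

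PSG3 (Entrez Gene 5671), whose promoter is printed above, gave 16.7, 11.7 and 12.0 on the control arrays and 25.2, 24.5 and 23.8 on the maspin arrays. Control replicate 1 stood above the other two, and the maspin arrays varied less, with a coefficient of variation of 2.76%. The means were 13.4 ± 2.83 and 24.5 ± 0.675, a 1.82-fold difference (log2 fold change 0.88 ± 0.14, SE, interval 0.57 to 1.20), rank 30.

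PSG1 (Entrez Gene 5669), the TGFβ-binding member, was dim on every array and did not reach the minimum. Its normalized intensity was 2.34, 3.08 and 3.00 on the control arrays and 5.23, 3.33 and 4.88 on the maspin arrays. The lowest maspin value lay only 1.08-fold above the highest control value, less than the 1.57-fold range within the maspin arrays. The means were 2.80 ± 0.407 and 4.48 ± 1.01, and no fold is given because the control arrays lay within the negative controls, as described below.

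PSG11 (Entrez Gene 5680) was also under the minimum and did not separate the lines. It gave 5.64, 5.10 and 6.78 on the control arrays and 5.69, 5.77 and 6.48 on the maspin arrays, and the groups overlapped fully. The means were 5.84 ± 0.860 and 5.98 ± 0.438. In a fit of all probes with no minimum, its log2 fold change was 0.04 ± 0.13 (SE, interval -0.26 to 0.34).

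**Figure D1:**
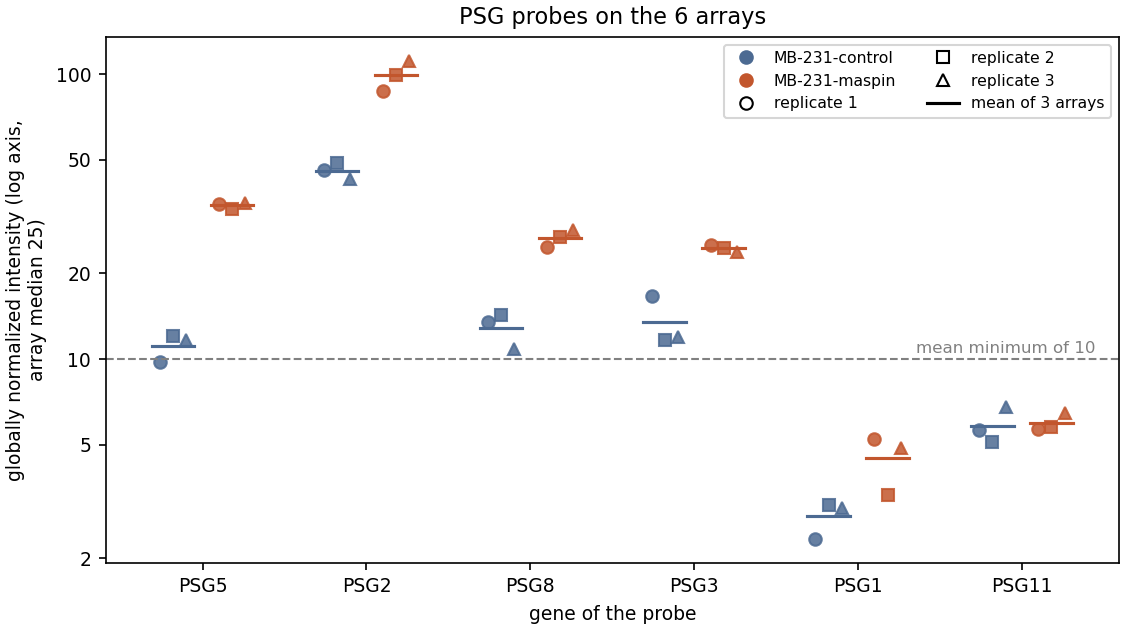
Globally normalized intensity (log axis) of the 6 PSG probes on the 3 control and 3 maspin arrays. Points are arrays (shape gives the replicate), short lines are means of 3 arrays, and the dashed line is the minimum mean of 10. The 3 maspin arrays of PSG5 (33.7 to 35.4), PSG2, PSG8 and PSG3 lie above all control arrays of the same probe, those of PSG1 do so narrowly, and those of PSG11 (5.69 to 6.48) lie among the control arrays.

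Of the 4 PSG probes in the fit, 4 lay past the threshold of 0.05 on the adjusted scale on the higher side, a count that describes how the family was chosen. Over all probes in the fit, 0.531% did so on the higher side, 0.315% on the lower side and 0.846% on either side. The 4 also had a log2 fold change of 0.8 or more, as did 0.273% of all probes in the fit. Non-overlapping arrays on the higher side were more common, at 14.1% of the 14300 probes with a value on every array, and 5.36% of the 5265 dim probes that, like PSG1 and PSG11, lay under the minimum with 6 values. Nothing is read from these counts. The median log2 fold change was 1.08 over the 4 PSG probes and 0.04 over all probes in the fit. Of the PSG probes, those nearest to the minimum of 10 by their larger group mean were PSG3 above it, with a maspin mean of 24.5, and PSG11 below it, with 5.98.

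The size of the gap also depended on the processing. Normexp is a background correction that here adds an offset of 50 to the corrected signal, and quantile normalization followed it in place of the median scaling. In that setting PSG5 came to 0.71 and PSG2 to 0.78, so that PSG5 no longer had the largest value, with PSG8 at 0.44 and PSG3 at 0.36. With an array left out, the log2 fold change was 1.55 to 1.70 for PSG5, 1.03 to 1.21 for PSG2, 0.93 to 1.14 for PSG8 and 0.79 to 1.05 for PSG3. The maspin mean was the higher one for these 4 probes in every setting that included them.

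**Figure D2:**
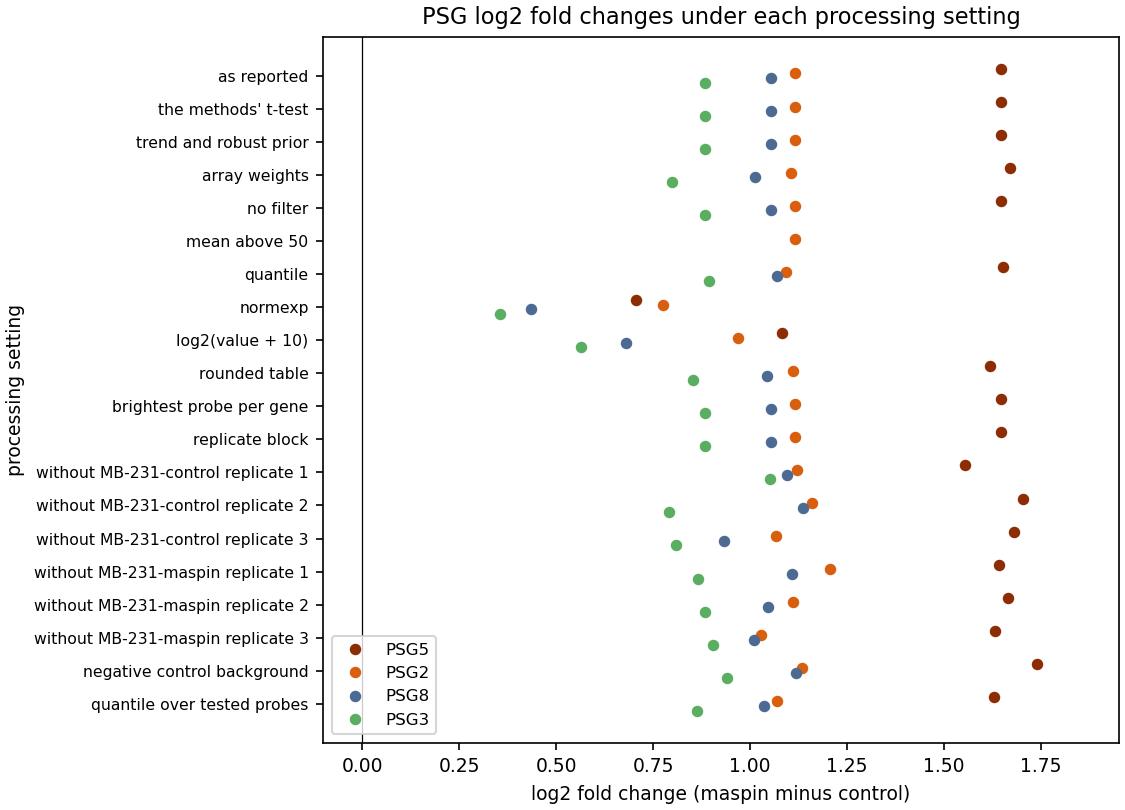
Log2 fold change (maspin minus control) of the 4 PSG probes in the fit, as reported and under each processing setting tried. PSG2 alone has a mean above 50. All points lie above 0, and normexp (offset 50) gives the smallest values, 0.36 to 0.78.

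The PSG signal was low in scanner units. On the control arrays the raw PSG5 signal was 88.2, 92.8 and 93.3 units, and on the maspin arrays it was 146, 154 and 131. The background subtracted from each array was 67.8 to 70.3 units and the median probe lay at 104 to 108 units on the control arrays and at no more than 115 units on the maspin arrays, so that PSG5 lay below the median probe in the control line and above it in the maspin line.
PSG2 was brighter, at 159, 166 and 156 units on the control and 263, 317 and 266 units on the maspin arrays. PSG8 gave 95.5, 97.4 and 91.7 against 124, 137 and 118 units, and PSG3 gave 102, 92.1 and 94.0 against 125, 131 and 110 units. These 4 probes thus did not overlap between the lines before any scaling either. With the background subtracted but the arrays not scaled, the folds were 3.37 for PSG5, 2.34 for PSG2, 2.23 for PSG8 and 1.98 for PSG3.

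Each array carries 96 negative control spots, which measure signal without a matching transcript. The probes of PSG2, PSG3, PSG5 and PSG8 were brighter than all 96 on each of the 6 arrays. PSG1, at 73.7 to 75.9 units on the control arrays, was exceeded by 10, 2 and 1 of these spots, and at 80.7, 78.5 and 76.5 units on the maspin arrays by none. On the control arrays PSG1 thus lay within the range of these spots, toward its upper end on replicates 2 and 3, so its presence there is not firmly shown. PSG11 (79.0 to 83.5 and 79.3 to 84.6 units) was exceeded by 1 spot on control replicate 2, which held the brightest negative spot of all arrays at 87.5 units.

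**Figure D3:**
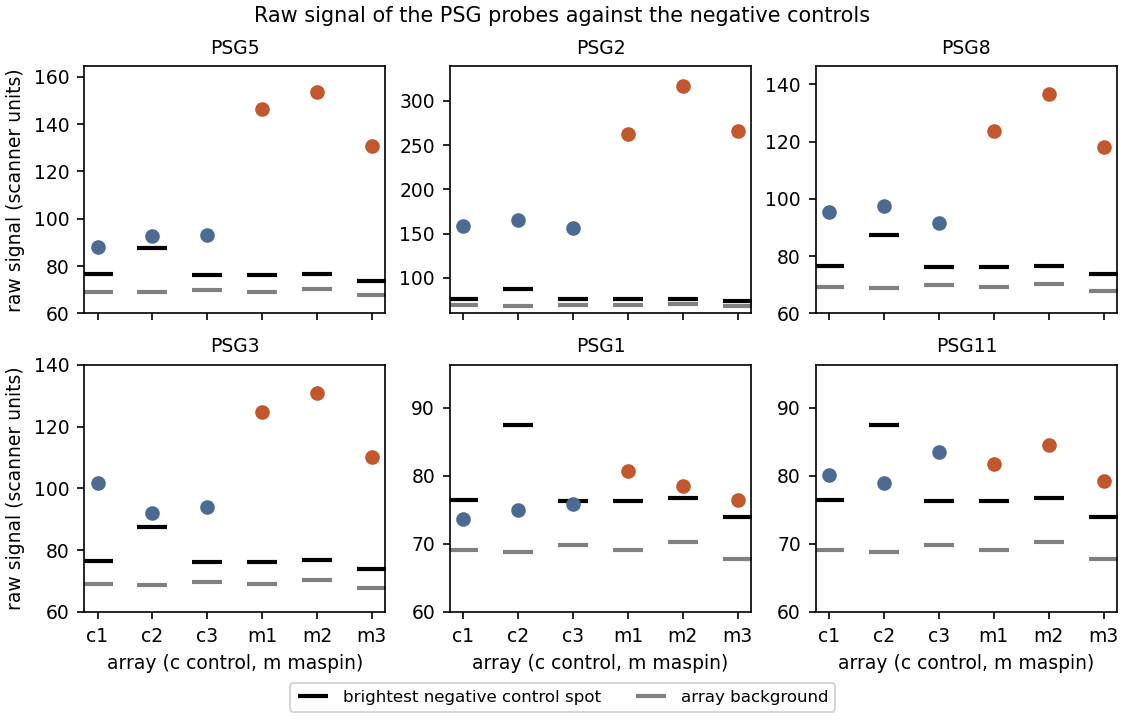
Raw signal (scanner units) of each PSG probe on the 6 arrays, with the brightest of 96 negative control spots (black) and the background (grey) of the same array. PSG5, PSG2, PSG8 and PSG3 lie above the black line on all arrays, whereas PSG1 lies below it on the control arrays, at 73.7 to 75.9 units, and PSG11 does so on control replicate 2.

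The PSG genes follow one another on chromosome 19 in the order PSG3, PSG8, PSG1, PSG6, PSG7, PSG11, PSG2, PSG5, PSG4 and PSG9, with no other protein-coding gene between them in the RefSeq table. The 4 probes with the larger gaps came from both ends of the run, PSG3 and PSG8 at the start and PSG2 and PSG5 toward the end, with PSG1 and PSG11 between. PSG genes are close copies of one another, and probe sequences were not used here, so how far 1 probe reads several PSG transcripts was not tested.

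None of the genes next to the run passed the test. Of 20 flanking protein-coding genes with a probe, 10 on each side, 24 probes were present, 11 passed the minimum and 0 passed the adjusted threshold in limma (3 at an unadjusted p under 0.05, and 0 after adjustment by the methods' t-test). Their median log2 fold change was 0.09, with a range of -0.28 to 0.55 and 9 of 11 above 0. Over all probes in the fit, 13.6% had an unadjusted p under 0.05 in limma and 60.4% lay above 0. Non-overlap between the lines was not confined to the PSG run. Of the flanking probes in the fit, those of CNFN, LIPE and ETHE1 and the brighter PHLDB3 probe were higher on every maspin array than on any control array. The others were not, and the share over all probes in the fit with a value on every array was 14.1%. The smallest p belonged to CNFN, a protein of the cornified envelope of skin, with means of 12.6 ± 0.642 and 17.2 ± 2.44 (log2 fold change 0.44 ± 0.11, limma adjusted p = 0.147). PHLDB3 followed, at 34.0 ± 7.46 and 49.0 ± 2.16 (0.55 ± 0.15, adjusted p = 0.182), while its second, dim probe differed the other way, by -0.25.
The immediate neighbours were dim. CEACAM8, a granulocyte adhesion protein, had means of 4.69 and 3.80, and CEACAM1, an adhesion receptor of epithelia and leukocytes, 8.40 and 8.56. On the far side CD177 was blank on control replicate 3 and TEX101 on all 6 arrays. On either side, the flanking genes in the fit that lay nearest were PHLDB3, described above, and LIPE (hormone-sensitive lipase), with means of 58.8 and 65.4 (log2 fold change 0.15, adjusted p = 0.404).

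**Figure D4:**
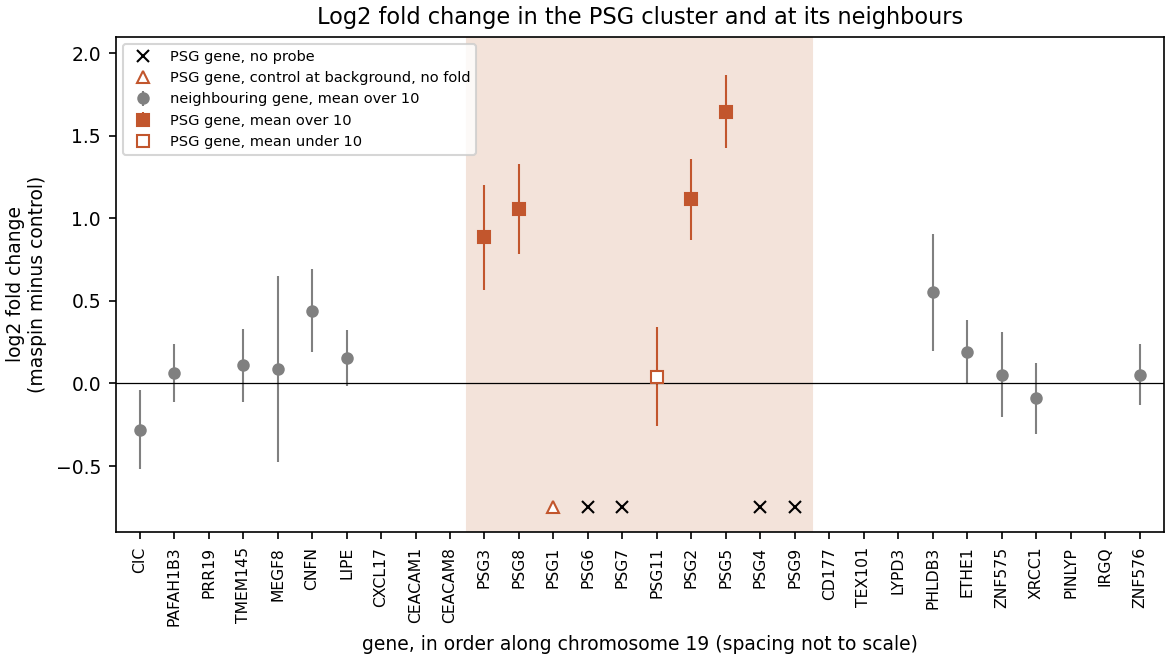
Log2 fold change (maspin minus control) of PSG and flanking probes by gene order on chromosome 19, with 95% intervals. Filled points passed the minimum of 10, the open square is PSG11, which did not, the triangle marks PSG1, whose control arrays lay within the negative controls, crosses mark PSG genes with no probe, and flanking genes under the minimum have no point. PSG5 stands at 1.65 and PSG2, PSG8 and PSG3 at 0.88 to 1.11, and flanking probes in the fit lie between -0.28 and 0.55.

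In the related CEACAM family, 12 genes had 13 probes and 4 passed the minimum. Of these, 1 was past the threshold in limma, CEACAM3, a granulocyte receptor for bacteria, at 20.9, 20.8 and 20.8 on the control and 42.2, 41.5 and 44.4 on the maspin arrays. Its groups were well apart, with a log2 fold change of 1.03 ± 0.07 (adjusted p = 0.000464), and its difference was already known when the list was drawn up. The others, CEACAM7 (0.23 ± 0.10), CEACAM6 (0.08 ± 0.09) and CEACAM19 (-0.02 ± 0.12), did not pass the test. The background share on either side is 0.846%, as above. The median over the 4 was 0.15.

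Among other genes of the syncytiotrophoblast, 1 passed the test, which was also known when the list was drawn up. The list held 45 genes, of which 34 had a probe (35 probes) and 18 passed the minimum. Of these 18, 1 rose and 17 did not pass the test in limma, with 5 at an unadjusted p under 0.05, a median log2 fold change of 0.02 and 10 of 18 above 0, beside 0.531% called higher, 13.6% at an unadjusted p under 0.05 and 60.4% above 0 over all probes. The 1 was KISS1, which encodes kisspeptin, a peptide that the placenta also secretes in large amounts. Its normalized intensity was 40.5, 48.0 and 39.6 on the control and 224, 228 and 229 on the maspin arrays. The maspin arrays lay close together and several-fold above the control arrays (log2 fold change 2.41 ± 0.09, adjusted p = 3.22e-05).

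The hormones and the fusion and differentiation genes that define the syncytiotrophoblast did not pass the test or were too dim to enter it. CGB3, a chorionic gonadotropin beta chain whose copies are nearly identical, had means of 36.8 ± 2.88 and 37.5 ± 3.64 (log2 fold change 0.02). CSH1, placental lactogen, had 22.9 ± 1.98 and 21.6 ± 1.12 (-0.08). GCM1, the transcription factor that drives trophoblast fusion, had 19.4 ± 1.55 and 18.9 ± 3.43 (-0.05). CGA, the common alpha chain of the hormone, was measured on 1 array and CYP19A1, placental aromatase, on none. The summed intensity of the marker list (CGA, CSH1, GCM1, ERVW-1 and CYP19A1) was 47.9 to 53.7 on the control arrays and 46.2 to 52.5 on the maspin arrays, with the ranges overlapping. TFAP2C, a trophoblast and breast transcription factor named after its values were seen, had 25.2 ± 1.90 and 36.7 ± 4.52 (0.54 ± 0.11) and missed the threshold (adjusted p = 0.0871). GATA3, described above, was also higher (0.30) without passing. TFPI2 and PEG10, likewise named with values seen, were lower on the maspin arrays. TFPI2 had 168 ± 11.9 and 136 ± 11.1 (-0.31 ± 0.09, limma adjusted p = 0.211). PEG10 had 20.4 ± 1.15 and 17.0 ± 0.477 (-0.26 ± 0.08, limma adjusted p = 0.204).

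The last list held genes known to act with PSG proteins or on PSG promoters. All 26 had a probe (29 probes), and 22 probes of 21 genes passed the minimum. None of the 22 passed the adjusted threshold in limma, and 0 did after adjustment by the methods' t-test, with 4 and 5 respectively at an unadjusted p under 0.05. Over all probes these unadjusted shares were 13.6% in limma and 13.9% in the methods' t-test. The median log2 fold change was -0.02 and the range -0.32 to 0.33. The smallest p belonged to ITGA5, a chain of the fibronectin receptor, with means of 277 ± 15.0 and 223 ± 21.3 (-0.32 ± 0.09, adjusted p = 0.206). LTBP1, which holds latent TGFβ in the matrix, followed at 185 ± 17.5 and 148 ± 10.4 (-0.32 ± 0.10, adjusted p = 0.216).
A few more are given for their known link to PSGs, outside the naming rule and with values seen. KLF6, the factor named above, had means of 689 ± 44.9 and 771 ± 6.56 (0.16 ± 0.08, adjusted p = 0.408). SP1, a factor that binds such GC-rich elements, had 47.7 ± 6.05 and 49.4 ± 0.434 (0.06 ± 0.10, adjusted p = 0.839). TGFB1, the cytokine that PSG1 binds in latent form, had 19.6 ± 2.23 and 18.6 ± 1.57 (-0.08 ± 0.11, adjusted p = 0.807). TGFB2 was the higher way, with 74.0 ± 5.62 and 83.3 ± 6.03 (0.17 ± 0.09, limma adjusted p = 0.461), and TGFB3 was under the minimum. VEGFA had the largest increase of the list, with 130 ± 18.1 and 163 ± 5.63 (0.33 ± 0.11, limma adjusted p = 0.237).

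The probes that most resembled PSG5 were found by Pearson's r of log2 values over the 6 arrays, among 14300 probes and with PSG and CEACAM probes left out. With 6 arrays in 2 lines, r is high for any probe that differs between the lines and varies little within them, and it is given as a description. The 5 were IL7R (the interleukin-7 receptor chain, r = 0.999), MT-CYB (mitochondrial cytochrome b, 0.999), SLC29A1 (a nucleoside transporter, 0.996), HDAC3 (a histone deacetylase, 0.995) and CD24 (a membrane sialoglycoprotein, 0.995). They matched in shape, and in size only CD24 came near the 1.65 of PSG5. CD24 had means of 27.5 ± 2.92 and 98.3 ± 5.15 (log2 fold change 1.84) and IL7R of 82.5 ± 4.09 and 132 ± 1.80 (0.68), whereas MT-CYB and HDAC3 differed by 0.10 and 0.15. On the same measure PSG2 reached 0.974, PSG8 0.957 and PSG3 0.888, at ranks 91, 215 and 825.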

How the data were processed

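Total RNA of MB-231-control and MB-231-maspin (3 arrays each, grouped by the sample labels) was hybridised to 3D-Gene human arrays. The deposited scanner files hold raw intensity, intensity after the authors subtracted the array background, and intensity the authors scaled to a median of 25 and left blank near background. The deposited series table holds the last as whole numbers (used as a score on that scale) and differed from it by at most 0.5. Of 24460 gene probes, 1493 lack a symbol, and 33 symbols turned into dates were restored by Entrez identifier.

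Log2 values of each probe (mean above 10 in either line, as in the study, and measured on 2 arrays or more of each) were fitted with limma 3.58.1 in R 4.3.3, two-sided, with Benjamini-Hochberg adjustment at 0.05. The study's methods name Student's t-test, which was run as an alternative on log2 values, with the same adjustment unless called unadjusted. Other tables and plots used Python 3.11.15, pandas 2.3.3, numpy 2.4.6 and matplotlib 3.10.9. Code was tested on simulated data.

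Members and lists were chosen with earlier results of these data known. The lists are genes flanking the PSG run, CEACAMs, syncytiotrophoblast genes, and PSG partners and regulators. Named were all PSG probes, called genes of each list (or the 2 of smallest p), the 5 probes most like PSG5, and SERPINB5. Sequences are from RefSeq. Scan dates and slides were not given in the sources used here, so no such batch was fitted.

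Alternatives were the t-test, a trended robust prior, array weights, no minimum, a minimum of 50, quantile normalization, normexp (offset 50) followed by quantile normalization, log2(value + 10), the rounded table, the brightest probe per gene, a replicate block and each array left out. Subtraction of the mean of 96 negative control spots and quantile normalization over tested probes were added after seeing the data.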

Additional observations from a re-analysis of the deposited data

How the results depend on the processing

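The 4 PSG probes kept their direction in every setting, with log2 fold changes of 0.71 to 1.74 (PSG5), 0.78 to 1.21 (PSG2), 0.44 to 1.14 (PSG8) and 0.36 to 1.05 (PSG3). The counts of PSG probes past the adjusted threshold describe a family chosen by this same contrast, and nothing is read from them. They were 1 in the methods' t-test (PSG5), 1 with a minimum mean of 50 (PSG2, the only one tested), and 2 to 4 with an array left out. PSG3 fell short without control replicate 2 (log2 fold change 0.79) or maspin replicate 1 (0.86), 2 (0.88) or 3 (0.90), and PSG8 without maspin replicate 2 (1.05) or 3 (1.01), with folds near the reported 0.88 and 1.05. Without a minimum 3 of 6 were past it. Over all probes, 121 were called in the reported fit, 44 with no minimum and 46 with a mean above 50. The methods' t-test called 23 with the adjustment used here, beside 1990 at an unadjusted p under 0.05. Called were also 269 with array weights, 276 with normexp, 274 with the negative control background and 243 with quantile normalization over the tested probes. The last 2 settings were chosen after seeing the data. With an array left out the count ran from 32 (without maspin replicate 2) to 229 (without control replicate 2), with 42 and 192 without control replicates 1 and 3, and 33 and 34 without maspin replicates 1 and 3. CEACAM3 was not tested with a mean above 50, where 1 CEACAM probe was in the fit and 0 were called. The syncytiotrophoblast list went from 1 called to 2 with array weights, the negative control background or quantile normalization over the tested probes. The added gene was TFAP2C. With normexp the list went to 3, of which 2 were higher and 1 lower on the maspin arrays. The partner list went from 0 to 1 with normexp (LTBP1). Flanking genes had 0 in each setting. The cause of these shifts was not tested. With the replicate number as a block, 126 probes and 4 of 4 PSG probes were called. Same-numbered arrays of the lines did not pair (correlations of deviations -0.355, 0.482 and 0.204, with 2 of 6 arrays closest to their own number). The dim PSG1 and PSG11 probes lay near the negative controls, which limits what the arrays can show of them.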
